A study of Arabidopsis thaliana with 4 samples.

Results

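The genes described here are 8 Arabidopsis flowering repressors, chosen by locus: the AP2-like genes AP2 (AT4G36920), TOE1 (AT2G28550), TOE2 (AT5G60120), TOE3 (AT5G67180), SMZ (AT3G54990) and SNZ (AT2G39250), and the TEMPRANILLO genes TEM1 (AT1G25560) and TEM2 (AT1G68840). Probes were matched through their RefSeq transcript. No probe was matched to TOE1 (listed as RAP2.7 in RefSeq), so 7 of the 8 genes have values, out of 20461 genes tested. All 7 had a probe well above background on every array, so none entered through 1 genotype alone.

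Transcripts were measured in whole seedlings of Columbia (Col-0) plants 14 days after germination, grown untreated at 22 °C in short days of 8 h light and 16 h dark, on 4 one-colour microarrays. WT, the wild type, had 1 array. AtC3H17 OX, plants that overexpress the CCCH zinc finger gene C3H17, had 2 arrays, and atc3h17-1, a mutant named by its allele of the same gene, had 1. The labels give neither the promoter of the transgene, nor the number of lines or pooled seedlings, nor the kind of mutation. A level below is log2 of the spot intensity relative to the 75th percentile of its array, so 0 is that percentile, and a difference is between log2 levels of 1 gene.

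The AP2-like proteins carry AP2 DNA-binding domains, and their transcripts are targets of the microRNA miR172. In Arabidopsis miR172 accumulates as a seedling ages while miR156 declines, so the AP2-like repressors lose hold as the plant leaves its juvenile phase. The TEMPRANILLO proteins belong to the RAV family, which joins an AP2 domain to a B3 domain. Both groups repress FT, the gene for the mobile flowering signal made in leaves, and the TEMPRANILLO proteins also repress gibberellin synthesis genes.

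The gene levels of the 2 AtC3H17 OX arrays differed by a median of 0.0316 (log2). The SD of single repeated spots on each of them was larger, 0.0941 and 0.0664. The 95th percentile of the difference was 0.279, and 238 genes were at least 2-fold apart. The difference between these arrays did not recur between separate probes of a gene (r = 0.0050 across 6058 genes, against 0.54 to 0.60 between genotypes). Genes are not independent replicates. The 2 AtC3H17 OX arrays were therefore counted as 1 sample, each genotype stands for 1 sample, and no p below measures the spread between plants. Repeated spots varied most on the WT array, with an SD of 0.203. Combined over the arrays of a comparison, the SD of a difference was 0.211 for AtC3H17 OX against WT, 0.212 for atc3h17-1 against WT and 0.0856 for atc3h17-1 against AtC3H17 OX. These are the only error estimates that include the WT or atc3h17-1 array, and they rest on 16 probes. C3H17 itself, taken as AT2G02160 from general knowledge, had a mean level of -1.07 in WT and 0.47 and 0.49 on the AtC3H17 OX arrays, while only 1 of its 3 probes was well above background in atc3h17-1.

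TOE3 was the one member that passed the thresholds in AtC3H17 OX, where it rose 2.18-fold. SMZ, SNZ, TOE2 and TEM1 stood below WT by 0.37 to 0.60, AP2 stood slightly above it and TEM2 level with it. In atc3h17-1 no member reached 2-fold. TOE3 was again the highest above WT, at 1.80-fold, and SNZ, SMZ and TEM1 were again below WT. Both comparisons share the single WT array, so a low or high WT spot would appear in both.

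**Figure D1:**
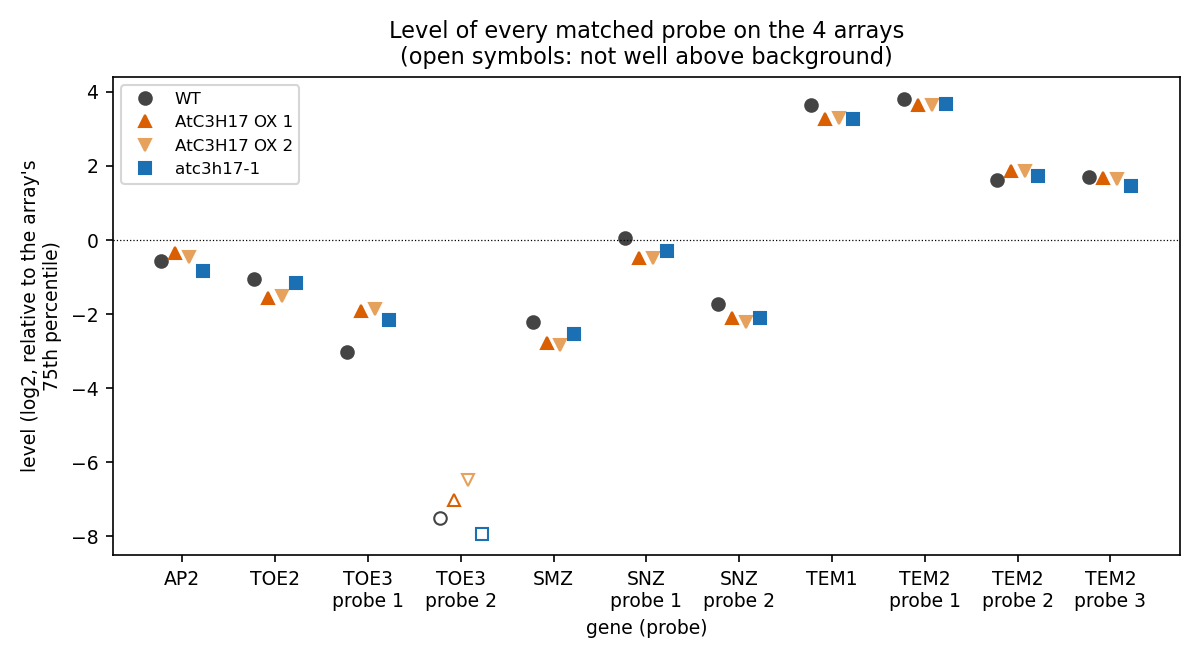
Level (log2, relative to the 75th percentile of the array) of all 11 matched probes on the 4 arrays, with open symbols where a spot was not well above background. WT is the lowest of the 4 arrays for TOE3 probe 1 (-3.01). It is the highest for TOE2 (-1.06), SMZ (-2.21), both SNZ probes, TEM1 (3.66) and TEM2 probes 1 (3.82) and 3 (1.69). TOE3 probe 2 is open on all 4. Probes differ in brightness, so heights are read within a probe.

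TOE3 encodes an AP2-like protein that in Arabidopsis is also known to repress the floral organ gene AGAMOUS. Its brighter probe, A_84_P19792, had a level of -3.01 in WT, -1.91 and -1.87 on the AtC3H17 OX arrays and -2.16 in atc3h17-1. WT was thus the lowest, both AtC3H17 OX arrays the highest and atc3h17-1 between them, nearer to AtC3H17 OX. Against WT the AtC3H17 OX arrays were 2.15-fold and 2.22-fold higher, and their mean difference of 1.12 ± 0.035 (SE) had a limma adjusted p of 0.00575. That SE comes from the AtC3H17 OX array pair, with the spread for TOE3 drawn by limma toward that of all genes. It leaves out the error of the WT spot, as does each SE given below for the other members. The difference is 5.34 times the repeated-spot SD of 0.211. Among all genes 4.00% were at least as far above WT. The rule of limma adjusted p under 0.05 with at least 2-fold called 4.43% of all genes higher and 2.84% lower, and 4.37% were at least 2-fold higher on both AtC3H17 OX arrays. Set against those shares, 1 call among 7 genes is not a result about the members as a set. Of the 2413 genes with a mean level from -3 to -2, the band in which TOE3 lies, 4.23% were at least 2-fold higher on both arrays. In atc3h17-1 TOE3 was 0.85 above WT, and 5.35% of genes were at least as high. From AtC3H17 OX it was at -0.27, a size of 3.20 repeated-spot SDs of that comparison. There 17.6% of genes were at least as low, and 73.4% of genes differed by more than 1 such SD in either direction.

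The second TOE3 probe, A_84_P797240, was not well above background on any array and was left out. Its spot intensities were 19.0 in WT, 26.0 and 37.7 on the AtC3H17 OX arrays and 13.4 in atc3h17-1, against a lowest intensity of 34.0 to 38.8 among spots that were well above background. The TOE3 result therefore rests on 1 probe. With the second probe averaged in, the AtC3H17 OX difference was 0.94 (limma adjusted p = 0.0652) and the call was lost, and the atc3h17-1 difference was 0.22.

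SMZ (SCHLAFMUTZE) and SNZ (SCHNARCHZAPFEN) are a closely related pair of AP2-like repressors, and SMZ is known to bind FT. SMZ, read by 1 probe, had a level of -2.21 in WT, -2.78 and -2.84 on the AtC3H17 OX arrays and -2.53 in atc3h17-1. WT was the highest and AtC3H17 OX the lowest. The AtC3H17 OX difference from WT, -0.60 ± 0.041 (SE; limma adjusted p = 0.00890), was the lowest of the 7 members, and 10.3% of all genes were at least as low. In atc3h17-1 SMZ was at -0.32 from WT, and at 0.28 from AtC3H17 OX.

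SNZ was read by a pair of probes that gave the same direction. The first, A_84_P123822, had a level of 0.050 in WT, -0.49 and -0.48 on the AtC3H17 OX arrays and -0.30 in atc3h17-1. The second, A_84_P827553, had levels of -1.74, -2.11, -2.21 and -2.12 in the same order. On both probes WT was above the other 3 arrays. The mean over the probes gave -0.48 ± 0.035 (SE; limma adjusted p = 0.00964) for AtC3H17 OX against WT and -0.37 for atc3h17-1 against WT. Between atc3h17-1 and AtC3H17 OX the difference of 0.11 was close to the repeated-spot SD of 0.0856.

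TOE2, which together with TOE1 delays the transition from juvenile to adult leaves, had a level of -1.06 in WT, -1.55 and -1.51 on the AtC3H17 OX arrays and -1.16 in atc3h17-1. Here AtC3H17 OX stood apart, while WT and atc3h17-1 differed by -0.095, less than the repeated-spot SD. The AtC3H17 OX difference from WT was -0.47 ± 0.033 (SE; limma adjusted p = 0.00917). TOE2 was 0.37 higher in atc3h17-1 than in AtC3H17 OX, and 9.25% of genes were at least as high in that comparison, which does not use the WT array.

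AP2, known for floral organ identity and seed size as well as for delaying flowering, had a level of -0.58 in WT, -0.34 and -0.45 on the AtC3H17 OX arrays and -0.83 in atc3h17-1. It lay on opposite sides of WT in the 2 genotypes, 0.18 ± 0.067 (SE) above it in AtC3H17 OX (limma adjusted p = 0.126) and at -0.25 in atc3h17-1. The first lies within 1 repeated-spot SD of 0 and the second just outside it. With normexp background correction these became 0.43 (limma adjusted p = 0.0114) and 0.020, so the side of WT on which AP2 lay in atc3h17-1 depended on the background correction. The difference between atc3h17-1 and AtC3H17 OX, -0.43, was the widest of the 7 members in that comparison, and 10.9% of genes were at least as low.

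TEM1 had a level of 3.66 in WT, 3.28 and 3.29 on the AtC3H17 OX arrays and 3.28 in atc3h17-1. The WT array alone stood apart. TEM1 was at -0.37 ± 0.024 (SE; limma adjusted p = 0.00827) from WT in AtC3H17 OX and at -0.38 in atc3h17-1, and atc3h17-1 was at -0.0085 from AtC3H17 OX. In the comparison of atc3h17-1 with WT it was the lowest member, and 15.8% of genes were at least as low.

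TEM2 (listed as RAV2) had a mean level over 3 probes of 2.38 in WT, 2.40 and 2.39 on the AtC3H17 OX arrays and 2.29 in atc3h17-1. The AtC3H17 OX difference from WT was 0.014 ± 0.023 (SE; limma adjusted p = 0.630) and the atc3h17-1 difference -0.086, both inside the repeated-spot SD. The 3 probes disagreed on the sign. In AtC3H17 OX they were at -0.17 (A_84_P22840, the brightest), 0.24 (A_84_P821416) and -0.024 (A_84_P869470) from WT, and in atc3h17-1 at -0.13, 0.10 and -0.22. The sign of the AtC3H17 OX difference was negative with the brightest probe alone, with normexp and with no scaling between arrays.

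**Figure D2:**
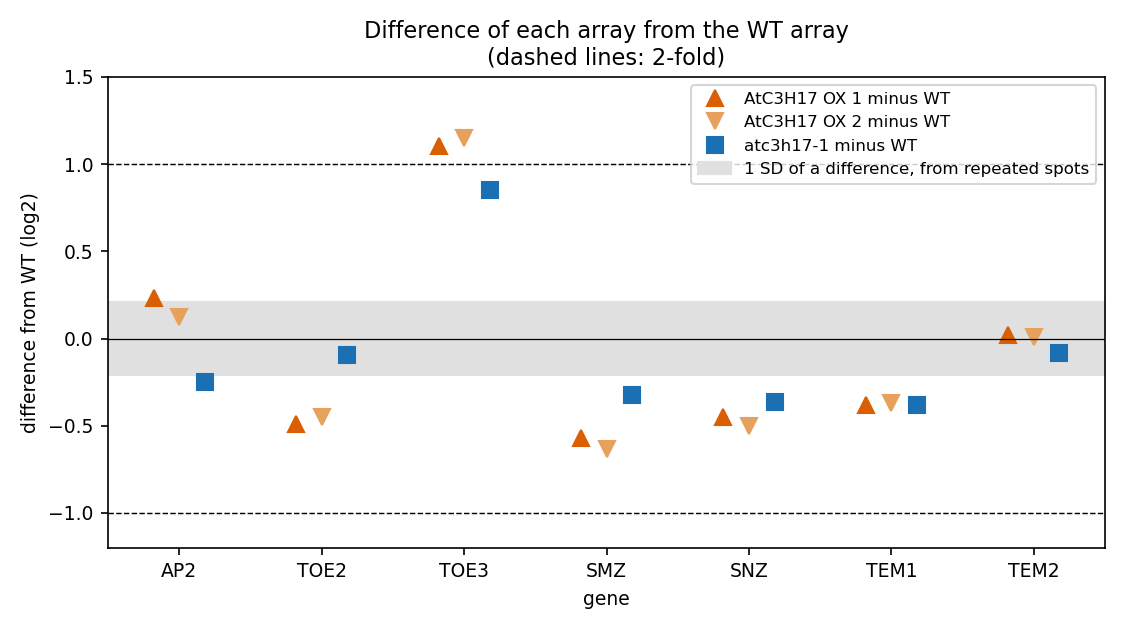
Difference from the WT array (log2) of each AtC3H17 OX array and of the atc3h17-1 array for the 7 measured genes; the grey band is 1 SD of a difference from repeated spots and the dashed lines mark 2-fold. TOE3 (2.15-fold and 2.22-fold above WT in AtC3H17 OX, 1.80-fold in atc3h17-1) lies far above the band, SMZ, SNZ and TEM1 lie below it on all 3 arrays, TOE2 only on the AtC3H17 OX arrays, and TEM2 lies inside it.

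Over the 7 genes the median difference from WT was -0.37 in AtC3H17 OX, beside -0.031 over all genes, and -0.25 in atc3h17-1, beside -0.023 over all genes. In AtC3H17 OX 4 members lay below WT by more than the repeated-spot SD and 1 above, where 32.4% of all genes lay below and 28.1% above by as much. Those 4 were SMZ, SNZ, TOE2 and TEM1, with differences of 2.85, 2.26, 2.23 and 1.77 such SDs in size. In atc3h17-1 again 4 lay below, with AP2 in place of TOE2, and 1 above, where 28.2% and 24.3% of all genes did so. A limma adjusted p under 0.05 at any size was reached by 5 of the 7 members and by 66.4% of all genes, so a small p was common across the array. By at least 2-fold, 0 of 7 members were called in atc3h17-1 against WT, where 8.59% of all genes were, and 0 of 7 in atc3h17-1 against AtC3H17 OX, where 4.46% were. Among all genes 906 were called higher and 582 lower by limma in AtC3H17 OX, a split that became 913 and 302 with normexp.

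**Figure D3:**
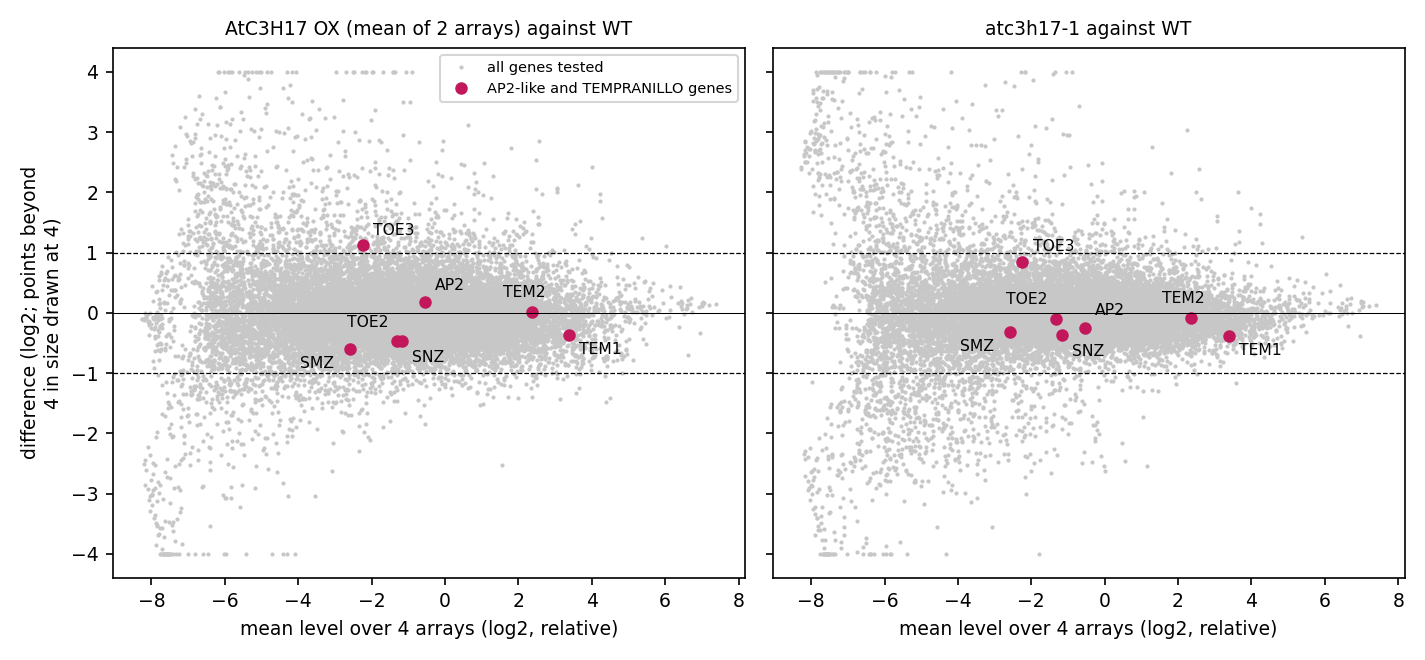
Difference from WT (log2) against the mean level over the 4 arrays (log2, relative to the 75th percentile) for all 20461 genes tested (grey) and the 7 measured AP2-like and TEMPRANILLO genes (coloured), for AtC3H17 OX on the left and atc3h17-1 on the right. TOE3 lies just past the dashed 2-fold line on the left (1.12) and just inside it on the right (0.85), and the other 6 lie inside the bulk of the genes.

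The profile of TOE3 over the 4 arrays was shared by many genes. The nearest after centring each gene on its mean were CYP89A9, a cytochrome P450 gene, at a Euclidean distance of 0.035 (log2), ESL1, a sugar transporter-like gene, at 0.037, and AT1G52245, at 0.037. CYP89A9 stood 1.13 above WT in AtC3H17 OX and 0.88 in atc3h17-1. Within a distance of 0.2 lay 206 genes, so 4 arrays of 3 genotypes do not single out a few.

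The tissue markers differed between the genotypes as well, and their part in the values of the members was not tested. The 15 root markers are mostly root hair and Casparian strip genes and do not stand for all root cells. Of these, 4 were called lower in AtC3H17 OX, where 2.84% of all genes were. There 14 lay below WT, with a median of -0.65, while 53.0% of all genes were below WT. NRT2.1 was the exception, at 0.67 in AtC3H17 OX and -0.14 in atc3h17-1. In atc3h17-1 the markers had a median of -2.14, and 13 were at least 2-fold lower, where 868 of all 20461 genes were. Their summed intensity, in units of the 75th percentile, was 4.44 in WT, 2.65 and 2.57 on the AtC3H17 OX arrays and 1.08 in atc3h17-1. Fewer root cells and less RNA of these genes per cell cannot be told apart in whole seedlings. All 11 green shoot markers were well above background on every array and none was called, with medians of 0.17 and 0.084. In AtC3H17 OX all 11 were above WT, and in atc3h17-1 8 were above and 3 below. Of 6 floral organ markers, SEP2 was not well above background anywhere and AP3 not in WT. PI, AG, SEP1 and SEP3 had a probe well above background on all 4 arrays, SEP1 being called lower in AtC3H17 OX at -1.17. AG (AGAMOUS) was at -0.79 from WT in AtC3H17 OX and 0.22 in atc3h17-1, with 1 of its 2 probes well above background in WT. Of 6 seed markers AT2S3 was not well above background anywhere. Another 4 passed the filter through AtC3H17 OX alone, the one genotype that measured them, with bounds over WT of at least 25.1-fold for CRA1, 12.2-fold for CRC, 2.60-fold for EM1 and 2.14-fold for OLEO1. EM6 was measured on all 4 arrays, at 4.71 above WT in AtC3H17 OX and 3.37 in atc3h17-1.

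The known partners and targets of these repressors were examined by lists. FT, which both groups repress, was at -0.31 from WT in AtC3H17 OX (limma adjusted p = 0.0173, under 2-fold) and at -0.55 in atc3h17-1. The photoperiod factor CO, which activates FT, was at -0.60 and -0.62. Among 9 florigen and integrator genes, TSF and LFY were not well above background. Of the other 7, FUL, a MADS-box gene of floral meristem identity, rose in AtC3H17 OX (1.52, or 2.87-fold; limma adjusted p = 0.00549). AP1 and CAL, of the same family, were well above background in AtC3H17 OX but not in WT, at least 1.73-fold and at least 1.78-fold higher. They passed the filter on dim probes without WT, and their limma calls rest on WT values below background, so a 2-fold difference was not measured for them. None of the 7 was called lower, where 2.84% of all genes were. AGL24, named here after its value was seen, was like FT below WT by less than 2-fold (-0.32, limma adjusted p = 0.0160). SOC1, an integrator downstream of FT, was at 0.60. In atc3h17-1 FUL was at 0.85 and CAL at least 1.57-fold above WT. AP1 was not well above background in atc3h17-1 or WT. A fold given as "at least" sets the brighter genotype against the weakest signal that still counts as detected.

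Upstream, none of the 5 miR172 and 2 miR156 precursor loci had a matched probe. Of 11 SPL genes targeted by miR156, a family with members that activate miR172, 10 were measured and 0 called. Over all genes 4.43% were called higher and 2.84% lower in AtC3H17 OX, so a count of 0 is near those shares. In AtC3H17 OX their median was 0.36, with 7 above WT and 3 below, where 53.0% of all genes were below. The highest were SPL4 (0.92), SPL10 (0.62) and SPL3 (0.59), SPL15 was the lowest (-0.47), and SPL9 was also below WT (-0.36). In atc3h17-1 their median was 0.0018, with SPL9 at -0.47 and SPL5 at -0.38. Among 8 photoperiod genes 0 were called, again near the shares over all genes. CDF1, a repressor of CO, was at 0.96 in AtC3H17 OX and 0.30 in atc3h17-1. The ubiquitin ligase gene COP1 was at -0.40 and the light sensor gene FKF1 at 0.32 in AtC3H17 OX, where FKF1 was at 0.31 in atc3h17-1.

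Of 7 other repressors, MADS-box genes and TFL1, AGL15 fell in AtC3H17 OX (-1.10, limma adjusted p = 0.00574, with 1 of its 2 probes well above background there). FLC was at -0.73, TFL1 at -0.71 and MAF4 at -0.69, and the list median was -0.69. In atc3h17-1 TFL1 was at -0.92 and the median was -0.11, with 0 members past 2-fold. Among TOPLESS and HDA19, the co-repressor genes whose products AP2-like proteins recruit, 0 of 6 reached 2-fold in either line. In AtC3H17 OX they ran from -0.15 for TPR3 to 0.47 for TPR4. Over all genes 4.43% were called higher and 2.84% lower in AtC3H17 OX, and 8.59% reached 2-fold in atc3h17-1. Counts of 0 or 1 in lists of 6 or 7 genes are near those shares.

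For the TEMPRANILLO side, 0 of 7 measured gibberellin oxidase and trichome genes were called in AtC3H17 OX. There 4.43% of all genes were called higher and 2.84% lower, so counts of 0 in the lists of this paragraph are near those shares. The gibberellin 3-oxidase gene GA3OX1, known as repressed by TEMPRANILLO proteins, was at -0.68 and GA20OX2 at -0.68, while the trichome regulators GIS and GL1 were at 0.63 and -0.47. In atc3h17-1 GA3OX2 was not well above background and at least 1.63-fold below WT, and GA20OX2 was at -0.75. The RAV relatives EDF3 and RAV1 were at -0.94 and 0.14 in AtC3H17 OX and at -0.45 and -0.15 in atc3h17-1, with 0 of 2 called. Of 12 more distant AP2-domain genes, the AINTEGUMENTA-like and WRINKLED genes, 8 were measured and 0 called in AtC3H17 OX, where WRI3 was at -0.91 and WRI4, a regulator of cuticular wax synthesis, at 0.69. In atc3h17-1 WRI4 was at 1.25 and PLT1, a root stem cell regulator, was at least 3.06-fold higher, well above background there alone.

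**Figure D4:**
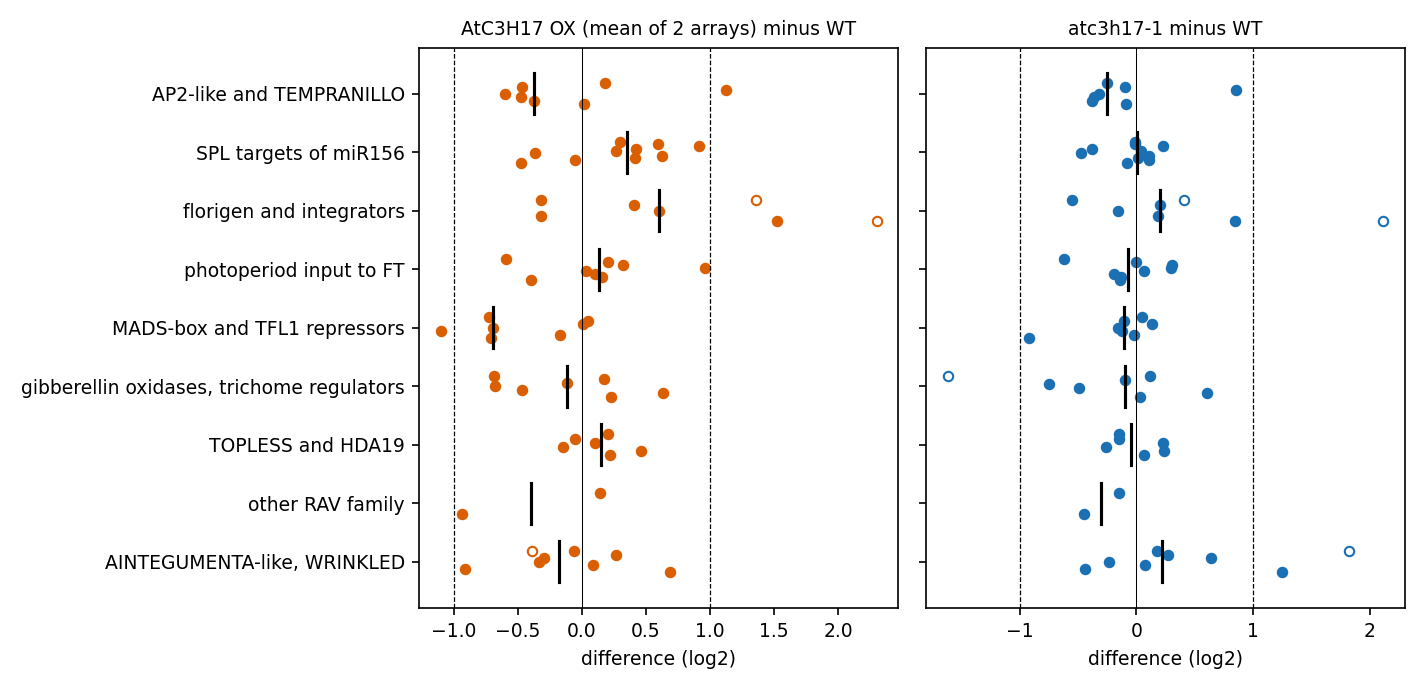
Difference from WT (log2) of every measured gene in the 9 lists, for AtC3H17 OX on the left and atc3h17-1 on the right; bars are list medians, dashed lines mark 2-fold and open symbols are genes not well above background in WT or in the line compared, whose plotted value is not a bound. Filled symbols past 2-fold are TOE3, FUL and, below, AGL15 in AtC3H17 OX, and WRI4 in atc3h17-1. AGL15 is filled although only 1 of its 2 probes was well above background in AtC3H17 OX. The open symbols beyond the lines are CAL and AP1 in AtC3H17 OX and CAL, PLT1 and GA3OX2 in atc3h17-1. Of these open symbols PLT1 alone has a bound past 2-fold.

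The signs of TOE3, SMZ, SNZ and TEM1 against WT held in both lines under all alternatives run, and TOE2 likewise stayed below WT. SMZ, TEM1 and TOE2 have 1 probe each, so settings that choose among probes could not change their values. All settings use the same WT array, so none of them tests its error. The size of the TOE3 difference in AtC3H17 OX ranged from 0.94 to 1.24.

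**Figure D5:**
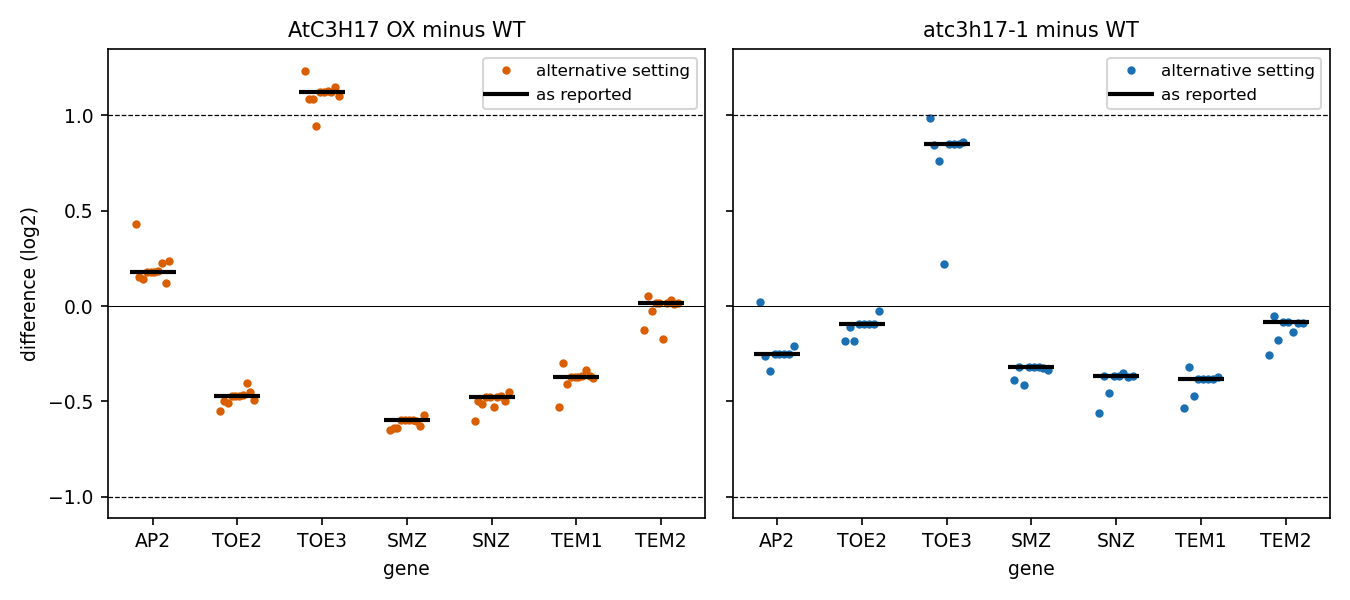
Difference from WT (log2) as reported (bars) and under each alternative setting (points) for AtC3H17 OX on the left and atc3h17-1 on the right, with dashed lines at 2-fold. TOE3 stays between 0.94 and 1.24 on the left and falls to 0.22 on the right when its dim probe is averaged in, AP2 reaches 0.020 on the right with normexp, and TEM2 lies on both sides of 0 on the left.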

How the data were processed

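Each array was scanned in 1 colour (Cy3) and read, per the file headers, with version 11.0.1.1 of Agilent Feature Extraction. The deposited processed signal is a background-subtracted and detrended linear intensity, not normalized between arrays, and the deposited 0 or 1 marks for other spot properties come from the same software. The authors' deposited series table holds linear intensities matching the processed signal to 0.01 (log2) for all but 43 to 49 of 43603 probes per array, neither scaled nor centred.

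Processed signals were taken as log2 minus the array's 75th percentile (3273 to 3487). Outlier spots (70 probes) were removed, repeated spots averaged, and 32969 probes kept that were detected (well above background) on each array of 1 or more genotypes. No spot was saturated. Of 43603 probes, 34348 were matched to 1 locus by transcript accession through the TAIR10.1 RefSeq table. A gene's level is the mean of its probes. AtC3H17 OX was compared with WT with limma 3.58.1 in R 4.3.3 (lmFit, eBayes, 1 residual degree of freedom, Benjamini-Hochberg over all genes). Genes were called at adjusted p under 0.05 and at least 2-fold. The procedure was run on simulated data with noise drawn from the AtC3H17 OX array pair for every array. That run leaves out the larger WT spot error and the spread between plants, so it does not test the p-values against either. The atc3h17-1 array was compared by size. Bounds ("at least N-fold") divide the brighter genotype's mean by a floor, which on each array is the weakest detected signal or, where that is higher, the signal of the dim probe itself. The number of arrays limits the precision. For normexp, the median spot and background intensities were used, as deposited by the authors.

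Named genes were all members, C3H17, up to 4 genes per list with the widest difference in each line, and the 3 genes nearest to the member with the widest AtC3H17 OX difference. Members and lists were chosen with earlier results of these data known. Gene roles are background knowledge. Python 3.11.15, numpy 2.4.6, pandas 2.3.3 and matplotlib 3.10.9 were used.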

Additional observations from a re-analysis of the deposited data

How the results depend on the processing

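No paired analysis was possible because AtC3H17 OX alone has more than 1 replicate number. The limit of these values is 1 sample per genotype and a WT array with noisier spots. Without a filter on dim probes, TOE3 was at 0.94 in AtC3H17 OX against WT (limma adjusted p = 0.0652), at 0.22 in atc3h17-1 against WT and at -0.72 in atc3h17-1 against AtC3H17 OX, because its second, dim probe then entered the mean. The AtC3H17 OX difference of TEM2 turned to -0.13 with normexp, -0.024 without scaling and -0.17 with the brightest probe. With normexp AP2 moved to 0.020 in atc3h17-1 and to 0.43 in AtC3H17 OX, where it passed 0.05 (limma adjusted p = 0.0114) but stayed under 2-fold. With the brightest probe TEM2 moved to 0.039 in atc3h17-1 against AtC3H17 OX. The cause was not tested for these. Without either AtC3H17 OX array, TOE3 was at 1.101 to 1.148 above WT and at -0.30 to -0.25 in atc3h17-1 against AtC3H17 OX. Counting the AP2 value of 0.43, 188 of 196 member differences kept their sign and their call or, where untested, moved by less than the repeated-spot SD. Genes with 1 probe could not move under settings that choose among probes. For atc3h17-1 against WT that SD, 0.212, is wider than the TOE2 and TEM2 differences themselves. The count is therefore not a measure of stability.

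Counts over all genes moved by more than 1.5 times under a pair of settings. With normexp, genes lower in AtC3H17 OX numbered 302 by limma (582 as reported) and 286 by at least 2-fold on both arrays (568), genes lower in atc3h17-1 against WT 424 (868), and genes higher and lower in atc3h17-1 against AtC3H17 OX 136 (339) and 178 (573). When each probe had to be detected on all 4 arrays, which tests fewer genes, limma called 384 lower, 591 were higher and 349 lower on both AtC3H17 OX arrays (894 and 568), 429 higher and 470 lower in atc3h17-1 against WT (889 and 868), and 90 higher and 319 lower in atc3h17-1 against AtC3H17 OX. Of 364 list medians, 335 moved by less than the repeated-spot SD. Leaving out either AtC3H17 OX array gave 1003 to 1045 genes higher and 643 to 687 lower than WT at 2-fold, and 393 to 401 higher and 675 to 681 lower in atc3h17-1 against AtC3H17 OX.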
